A study of Mus musculus with 6 samples.

Results

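Glycolysis is the chain of reactions that splits glucose into pyruvate, and its genes were examined here in regulatory T (Treg) cells that lack the microRNA gene *miR-142*. The set held 34 genes, from glucose entry to the fate of pyruvate. They were taken by gene symbol from a count matrix of 24421 genes, and all 34 were present. Of these, 32 had enough counts to be tested. *Eno1* was listed at 0 in every library, and *Pdk4* was listed at 0 in 4 libraries and at 1 and 2 counts in KO replicates 2 and 3.

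The RNA came from CD4+YFP+ Treg cells sorted from spleens of female C57BL/6 mice aged 8 to 11 weeks. Only messenger RNA counts were measured, not protein or metabolites. The WT group held 3 *Foxp3Cre* mice, which carry a Cre recombinase fused to YFP at the *Foxp3* locus and an intact *miR-142* gene. The KO group held 3 *Foxp3Cre miR-142fl/fl* mice, in which the same Cre removes a floxed *miR-142* in cells that express *Foxp3*. Both groups therefore carry Cre-YFP and differ in the floxed allele. Each library stands for 1 mouse, and the groups were matched for age and sex. The KO mice develop autoimmune disease, so loss of the microRNA within the Treg cell and the inflamed surroundings of that cell cannot be told apart. In sorted bulk RNA, fewer cells of a type and less RNA per cell cannot be told apart either.

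In T cells, glucose enters through facilitative transporters, hexokinases trap it as glucose 6-phosphate, and phosphofructokinase commits it to breakdown. Pyruvate is either reduced to lactate, which leaves through monocarboxylate transporters, or enters mitochondria through the pyruvate dehydrogenase complex, which pyruvate dehydrogenase kinases switch off. Activated effector T cells are known for strong glycolysis, whereas Treg cells are known to rely more on mitochondrial oxidation, and *Foxp3* itself is known to restrain glycolytic genes.

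The miR-142 hairpin gives rise to a pair of mature microRNAs, which are shown because they are what the KO cells lose. In RefSeq (GRCm38.p6) they lie on the plus strand at chr11:87756867-87756887 (5p) and chr11:87756903-87756925 (3p). Capitals mark the seed, bases 2 to 8 from the 5′ end.
mmu-miR-142a-5p: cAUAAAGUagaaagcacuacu
mmu-miR-142a-3p: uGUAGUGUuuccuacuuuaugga

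The 3′ untranslated regions of the 34 genes were searched for a 7-base match to either seed. For each gene the coding transcript with the longest such region was used (GENCODE, GRCm38). No gene of the set held ACACTAC, the match to the 3p seed, against 7.09% of 10780 tested genes with an annotated 3′ untranslated region. AACACTA, the match shifted by 1 base, was found in *Slc2a1* and *Hk2*, which is 5.88% of the set against 10.3% of tested genes. ACTTTAT, the match to the 5p seed, was found in *Pkm*, *Pfkp* and *Pdk4*, which is 8.82% of the set against 15.9% of tested genes. Only the sense strand of the transcript was searched. These counts are small, and the shares do not account for the length of the region, which was 81 bases for *Eno3* and 3734 for *Pdk1*. The shares of the set also include *Eno1* and *Pdk4*, which were not tested. The 30-base windows of the genes whose expression is described most closely below follow, with the match in capitals. The *Slc2a1* match lies in exon 10 of 10 at chr4:119137567-119137573 (plus strand), the *Hk2* match in exon 18 of 18 at chr6:82725747-82725753 (minus strand) and the *Pkm* match in exon 11 of 11 at chr9:59679058-59679064 (plus strand).
Slc2a1: gcgcaagcttcAACACTAtcttgaaagtga
Hk2: aacagccttgtAACACTAataaacaagata
Pkm: tggaaaccctgACTTTATcacagaagggcg
A match is a description of the letters and was not tested as a site.

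The genes of the set that passed the test in KO Treg cells were all higher than in WT. The glucose transporter gene *Slc2a1*, *Tpi1*, *Eno3*, *Pkm* and the lactate transporter gene *Slc16a1* rose by 1.40- to 1.99-fold. No gene of the set was called lower. These 5 genes are 15.6% of the 32 tested. Over all 11658 genes tested, 18.8% were called, with 11.6% higher and 7.27% lower. In the higher direction alone the set had 15.6% against 11.6%. Scaled by library size alone, 3 genes of the set were called higher, against 9.13% of all genes, and 0 lower, against 10.3%, and the split of all calls was 1064 higher and 1201 lower in place of 1350 and 847. The number called moved with single libraries, in the set as over all genes. Higher calls in the set were 1 without WT replicate 1 (5.78% of all genes), 1 without WT replicate 2 (4.18%), 2 without WT replicate 3 (4.81%), 3 without KO replicate 3 (7.62%) and 9 without KO replicate 2 (12.3%). DESeq2 called 8 genes of the set higher, against 14.3% of all genes, and an FDR under 0.01 in edgeR left 1, against 4.2%. With no CPM filter 4 were called higher (6.41% of all genes), with robust estimation 6 (11.3%) and with a replicate block 4 (9.1%). The call was an adjusted p, the false discovery rate (FDR) of edgeR's quasi-likelihood test, under 0.05.

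The log2 fold change was positive for 27 of 32 genes (84.4%), against 51.8% of all genes tested. The median log2 fold change over the set was 0.26, against 0.02 over all genes. *Hk3*, which passed the filter on low counts only through KO, is among the 27 and in the median. The lowest KO library exceeded the highest WT library for 14 of 32 genes (43.8%), against 22.2% of all genes, and *Hk3* is among these too. The reverse held for 0 of 32 genes, against 18.8%. At an unadjusted p under 0.05 in the same edgeR test, 14 genes were higher, against 19.7% of all genes, and 1 gene, *Pfkfb3*, was lower, against 15.1%. *Hk3*, with the same limit, is again among the 14 higher genes. Genes of 1 pathway are not independent of each other, and these counts are a description of the set.

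**Figure D1:**
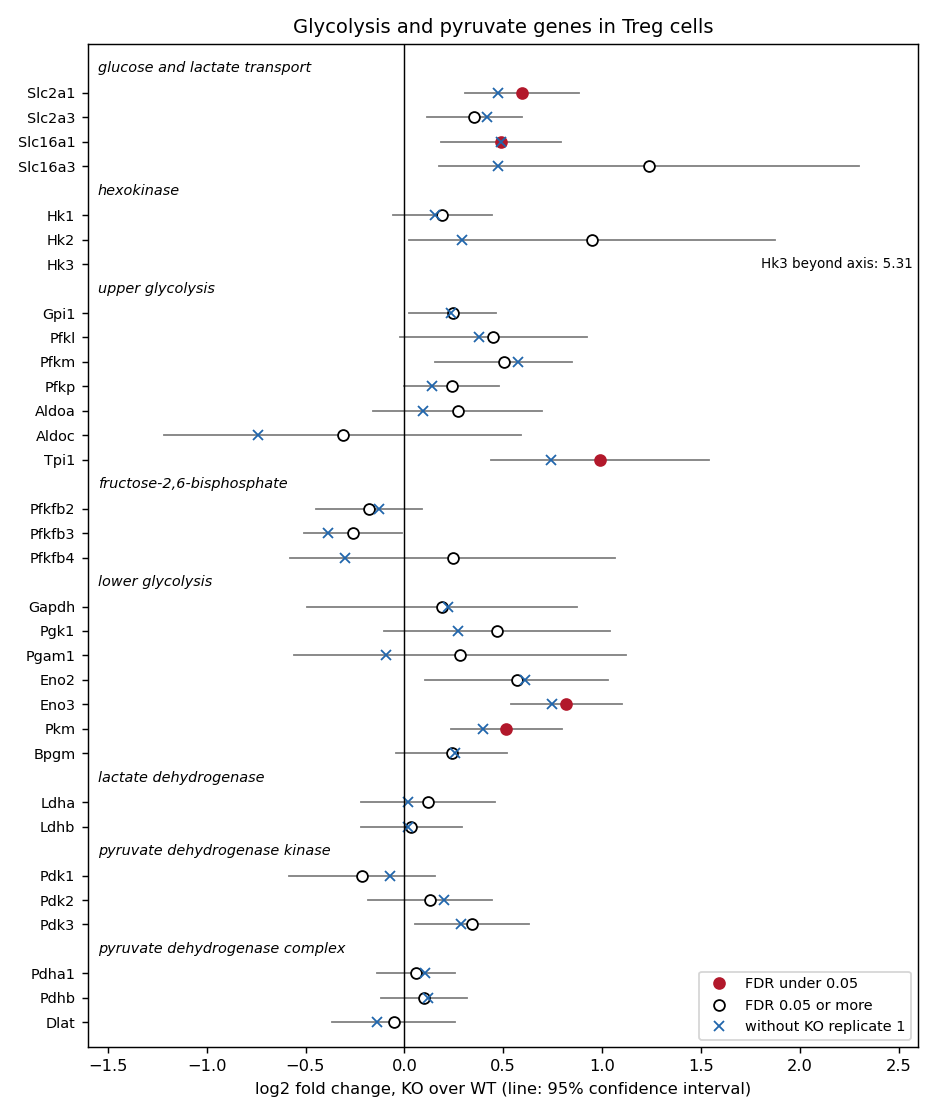
Log2 fold change (KO over WT, x axis) of the tested genes by role, with 95% confidence intervals from edgeR as lines. Filled points passed an FDR of 0.05, and blue crosses give the value without KO replicate 1; the 5 filled points lie between 0.49 and 0.99, and Hk3, at 5.31, lies beyond the axis.

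The KO libraries were not alike, and KO replicate 1 stood apart. The library totals ran from 13883069 to 24042994 counts. In KO replicate 1 the summed level of 12 monocyte and macrophage markers was 2856 CPM (counts relative to the library total as scaled by edgeR's TMM factors), against 79.0 and 20.5 in KO replicates 2 and 3 and 9.55 to 13.7 in WT, and all 12 were highest there. The neutrophil markers summed to 973 CPM there, 16.8 and 49.1 in the other KO libraries and 4.37 to 5.91 in WT, with 11 of 12 highest. Both sums were thus above WT in all 3 KO libraries, also without KO replicate 1, but not through every marker. In KO replicate 3, *Vcam1* was at 11.2 of the 20.5 CPM. *Csf1r*, *C1qa*, *C1qb* and *C1qc* were above WT in KO replicate 2, whereas *Cd68* and *Itgam* were below WT in KO replicates 2 and 3. Of the neutrophil markers in KO replicate 2, *Mmp9* was at 8.93, *Mpo* at 6.21 and *Elane* at 1.21 CPM. *S100a8*, *S100a9*, *Mmp8*, *Retnlg* and *Cxcr2* were at 0 there. The B cell markers summed to 290 CPM against 9.08 to 41.3, with 8 of 8 highest, and the erythroid markers to 35.7 CPM against 0.83 to 3.63, with 3 of 7 highest and 4 at 0 in all libraries. The proliferation markers summed to 1187 CPM against 659 to 830, with 10 of 14 highest. The CD8 and NK cell markers summed to 78.4 CPM there, 55.8 and 44.6 in the other KO libraries and 20.3 to 24.3 in WT. Of the 5 with more than 3 counts over all libraries together, 3 were highest in KO replicate 1. *Eomes* alone was at 39.1, 42.0 and 29.8 CPM in KO and 4.35 to 6.69 CPM in WT. Of the other markers, *Cd8a* lay above WT in all KO libraries, *Klrb1c* lay below, and *Cd8b1*, *Ncr1* and *Klrd1* overlapped. The Treg markers summed to 7318 CPM there, the lowest of the KO group, against 8124 and 8281 in the other KO libraries. In WT they summed to 5460 to 6106 CPM. *Il2ra* was at 2258, 2404 and 3073 CPM in KO and 726 to 799 CPM in WT. *Foxp3* and *Tnfrsf18* also lay above WT in all KO libraries, *Cd4* and *Cd3e* lay below, and *Ctla4*, *Ikzf2* and *Cd3g* overlapped. The microRNA's own locus was read by *Mir142b*, which overlaps the hairpin, at 9.05, 4.14 and 5.81 CPM in WT and 0.39, 0.38 and 0.34 CPM in KO. *Mir142b* passed the filter on low counts only through WT and is given as values only. The row named *Mir142* was listed at 0 in all.

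Of the 32 tested genes, 14 were highest in KO replicate 1, 5 in KO replicate 2, 8 in KO replicate 3 and 5 in a WT library. Only *Hk3*, *Slc16a3*, *Hk2* and *Pfkfb4* exceeded every other library there by more than 1.5-fold. Without that library 6 genes of the set were called higher, against 9.69% of all genes, and 1 was called lower, against 7.59%, and the median log2 fold change was 0.22. Called higher without it were *Slc2a1*, *Slc2a3*, *Pfkm*, *Tpi1*, *Eno3* and *Pkm*. The 34 genes together made up 0.296, 0.270 and 0.272% of all counts in WT and 0.342, 0.274 and 0.337% in KO, so by raw share KO replicate 2 lay within the WT range. On the TMM scale they summed to 2827, 2661 and 2671 CPM in WT and 3535, 2881 and 3418 CPM in KO, without overlap.

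Of the glucose transporter genes, *Slc2a1* was called and *Slc2a3* was not. *Slc2a1* encodes GLUT1, the transporter that T cells raise on activation. Its level was 48.6, 47.3 and 56.9 CPM in WT and 87.7, 73.0 and 69.9 CPM in KO. All KO libraries lay above all WT libraries. The rise was 1.51-fold (log2 0.59 ± 0.12 SE, n = 3 per group, edgeR FDR 0.0177), and it was 0.47 on the log2 scale without KO replicate 1 (edgeR FDR 0.0272). The call was lost without WT replicate 1 (edgeR FDR 0.0742) and without WT replicate 2 (edgeR FDR 0.0871). *Slc2a3*, which encodes the high-affinity transporter GLUT3, was at 147, 150 and 153 CPM in WT and 170, 190 and 215 CPM in KO. The groups did not overlap either, but the gene fell just short of the threshold (log2 0.35 ± 0.10 SE, edgeR FDR 0.0505).

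Lactate leaves T cells through the transporters encoded by *Slc16a1* (MCT1) and *Slc16a3* (MCT4). *Slc16a1* was at 34.7, 31.5 and 38.4 CPM in WT and 48.0, 55.9 and 43.1 CPM in KO, without overlap. The rise was 1.40-fold (log2 0.49 ± 0.13 SE, edgeR FDR 0.0390). The call was lost in 5 of 6 fits that left out 1 library (edgeR FDR 0.045 to 0.151 over the 6), with library size alone (0.0571) and with no CPM filter (0.0606), while the log2 fold change stayed between 0.39 and 0.56 in the 6 fits. *Slc16a3* was at 11.1, 10.3 and 9.90 CPM in WT and 44.3, 11.5 and 17.7 CPM in KO. The KO libraries lay above WT, but KO replicate 1 was 2.50 times the next highest library. The gene was not called (log2 1.24 ± 0.45 SE, edgeR FDR 0.0996), and its log2 fold change was 0.47 without that library. The neutrophil marker sum, at 973, 16.8 and 49.1 CPM in KO replicates 1 to 3, had the same order as *Slc16a3*. The monocyte and macrophage sum, at 2856, 79.0 and 20.5 CPM, was also highest in KO replicate 1 but had replicates 2 and 3 in the reverse order. The part of these cells was not tested.

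The hexokinases, which trap glucose in the cell, were not called with all 6 libraries, and *Hk2* was called higher without KO replicate 2 (edgeR FDR 0.0497). *Hk1*, the constitutive form, was at 237 to 260 CPM in WT and 244 to 308 CPM in KO, and the groups overlapped. *Hk2*, the inducible form, was at 10.1, 8.85 and 9.57 CPM in WT and 31.4, 10.4 and 13.1 CPM in KO (log2 0.95 ± 0.39 SE, edgeR FDR 0.135), and its log2 fold change was 0.29 without KO replicate 1. *Hk3*, a form known from myeloid cells, was at 0.92, 0.37 and 0.94 CPM in WT and 82.5, 1.29 and 2.12 CPM in KO. It was 38.9 times higher in KO replicate 1 than in any other library, and only the KO libraries carried it past the filter on low counts. Its log2 fold change of 5.31 ± 1.68 SE was not called (edgeR FDR 0.0666), and without that library it was too low to be tested. The neutrophil and macrophage marker sums of that library stand beside both genes, and their part was not tested.

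**Figure D2:**
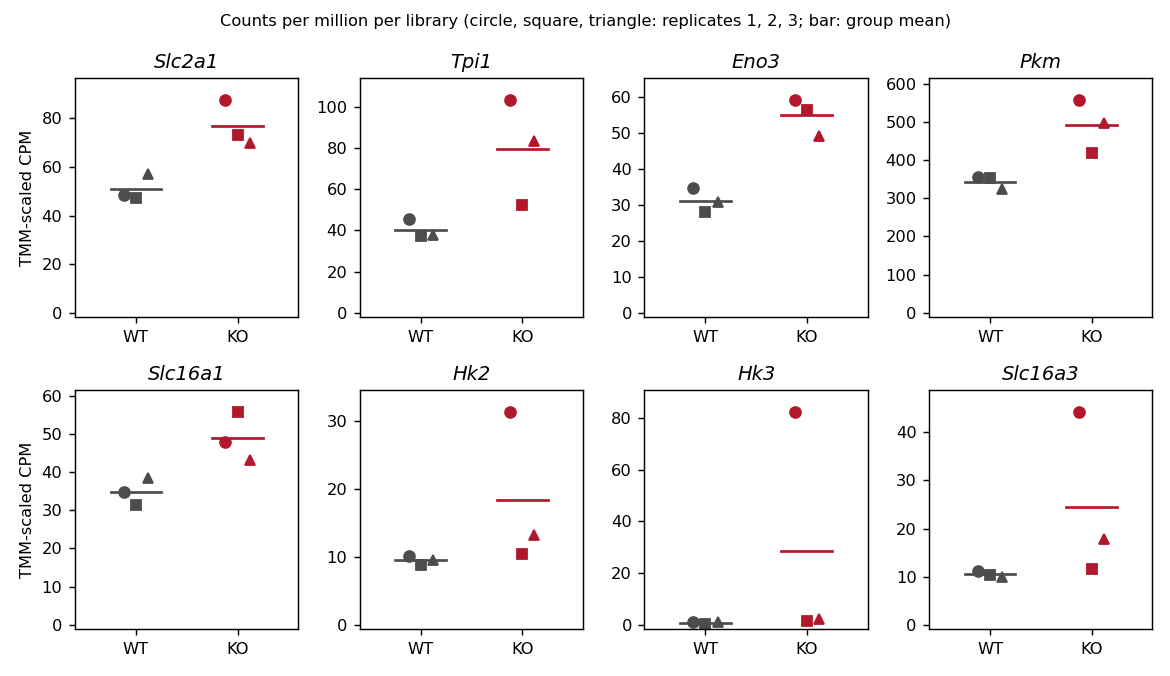
TMM-scaled CPM (y axis) in each WT and KO library for the 5 genes called and for Hk2, Hk3 and Slc16a3, with the group mean as a bar. The groups are apart for all 8 genes, and KO replicate 1 (circle) is the highest library for all of them but Slc16a1, and by the widest margin for Hk2, Hk3 and Slc16a3, at 31.4, 82.5 and 44.3 CPM.

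In the upper part of the path only *Tpi1* was called. It encodes triosephosphate isomerase, which turns the second triose product of aldolase into the one that goes on. Its level was 45.5, 37.3 and 38.0 CPM in WT and 104, 52.4 and 83.6 CPM in KO. The groups did not overlap, and the KO libraries spread widely. The rise was 1.99-fold (log2 0.99 ± 0.23 SE, edgeR FDR 0.0278), and 0.74 on the log2 scale without KO replicate 1. The call held without KO replicate 1 or 2 and was lost without any of the other 4 libraries (edgeR FDR 0.0697 to 0.112). *Gpi1*, the isomerase after hexokinase, was at 296 to 332 CPM in WT and 341 to 393 CPM in KO (log2 0.24 ± 0.09 SE, edgeR FDR 0.113). The phosphofructokinase genes *Pfkl*, *Pfkm* and *Pfkp*, the liver, muscle and platelet forms, had log2 fold changes of 0.45, 0.50 and 0.24. That of *Pfkl* was 0.25 without KO replicate 3 and 0.66, and called, without KO replicate 2 (edgeR FDR 0.0106). *Pfkm* came nearest to a call, at 26.6 to 31.3 CPM in WT and 34.9 to 47.9 CPM in KO (edgeR FDR 0.0540), and was called without KO replicate 1 (edgeR FDR 0.0351). The aldolase genes *Aldoa* and *Aldoc* had log2 fold changes of 0.27 and -0.31, with overlapping groups. That of *Aldoa* was 0.10 without KO replicate 1 and 0.46, and called, without KO replicate 2 (edgeR FDR 0.0239), and that of *Aldoc* ran from -0.74 to -0.02 over the fits that left out 1 library.

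The genes that set the activator of phosphofructokinase were not called. *Pfkfb2*, *Pfkfb3* and *Pfkfb4* encode the enzymes that make and remove fructose 2,6-bisphosphate, its strongest activator. *Pfkfb3* was at 84.1 to 90.6 CPM in WT and 84.2, 68.9 and 67.9 CPM in KO, so KO replicate 1 lay within the WT range. It was not called (log2 -0.26 ± 0.11 SE, edgeR FDR 0.130). Without KO replicate 1 it was called lower (log2 -0.38 ± 0.09 SE, edgeR FDR 0.0272), the only gene of the set called in that direction. *Pfkfb2* had a log2 fold change of -0.18 and *Pfkfb4* of 0.24, and that of *Pfkfb4* was -0.30 without KO replicate 1.

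In the lower part *Eno3* and *Pkm* were called. *Eno3* encodes beta-enolase, the form known from muscle. Its level was 34.6, 28.0 and 30.9 CPM in WT and 59.3, 56.4 and 49.2 CPM in KO. The lowest KO library, at 49.2 CPM, lay above the highest WT library, at 34.6 CPM. The rise was 1.77-fold (log2 0.82 ± 0.12 SE, edgeR FDR 0.00540), and *Eno3* alone was called in all 6 fits that left out 1 library. *Pkm* encodes the pyruvate kinase of T cells, whose splice forms the counts do not separate. It was at 355, 353 and 325 CPM in WT and 559, 420 and 498 CPM in KO, without overlap. The rise was 1.43-fold (log2 0.52 ± 0.12 SE, edgeR FDR 0.0263). The call held without KO replicate 1 or 2 and was lost without any of the other 4 libraries (edgeR FDR 0.0742 to 0.109) and with library size alone (0.0512).

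The other genes of the lower part were not called. *Eno2*, the enolase form known from neurons, was at 6.15 to 8.31 CPM in WT and 9.46 to 12.2 CPM in KO (log2 0.57 ± 0.20 SE, edgeR FDR 0.0859). *Bpgm*, which makes 2,3-bisphosphoglycerate, was at 24.3 to 25.0 CPM in WT and 26.3 to 33.1 CPM in KO (log2 0.24 ± 0.12 SE, edgeR FDR 0.201). *Gapdh*, *Pgk1* and *Pgam1*, encoding the enzymes between triose phosphate and enolase, had log2 fold changes of 0.19, 0.47 and 0.28, all with overlapping groups.

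Some of these genes have many near-identical copies in the genome, and their counts are uncertain. The reads were 51 bases long. Of all 51-base stretches of the longest coding transcript, 17.6% for *Gapdh*, 28.1% for *Eno1*, 32.1% for *Pgk1* and 58.6% for *Pgam1* occur in no other annotated gene (GENCODE). *Gapdh* shares stretches with 220 other genes, of which 211 are pseudogenes. The most shared partner of *Eno1* was *Eno1b*, which holds 70.3% of its stretches, and that of *Pgk1* was *Pgk1-rs7*, which holds 67.9%. *Pkm* is called on a transcript that is 66.3% its own. The other called genes were at 92.8% (*Tpi1*), 98.3% (*Slc2a1*) and 100% (*Eno3* and *Slc16a1*). In a split chosen after seeing the data, 4 of the 20 tested genes with 90% or more and 1 of the 12 below were called, all higher, beside the 11.6% of all genes called higher; the numbers are too small to set the subsets against each other. The median log2 fold change of the 20 was 0.40.

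Between genes, levels were compared per length of the transcript. In WT, *Aldoa* at 166 ± 11.2, *Ldha* at 165 ± 9.88 and *Pkm* at 141.6 ± 7.06 CPM per kb of transcript (SD, n = 3) were the highest 3, with *Aldoa* and *Ldha* within their spread of each other. The order turned when only the stretches found in no other gene were counted as length: *Pkm* was then highest at 218 ± 10.9, with *Ldha* at 202 ± 12.1 and *Aldoa* at 197 ± 13.3 CPM per unique kb. *Gpi1* came next on both scales, at 107 ± 7.10 CPM per kb and 144 ± 9.59 CPM per unique kb. *Pdha1* at 57.3 ± 0.65 and *Hk1* at 57.2 ± 3.08 CPM per kb were close, but per unique kb they were at 70.1 ± 0.79 and 59.4 ± 3.19. *Gapdh*, a gene that nearly all cells use heavily, was at 4.18 ± 1.46, *Pgk1* at 2.64 ± 0.30 and *Pgam1* at 1.44 ± 0.17 CPM per kb. How reads with several matches were counted is not given in the sources used here, so the values of *Eno1* and of these 3 genes are uncertain, and the part of the copies in them was not tested.

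**Figure D3:**
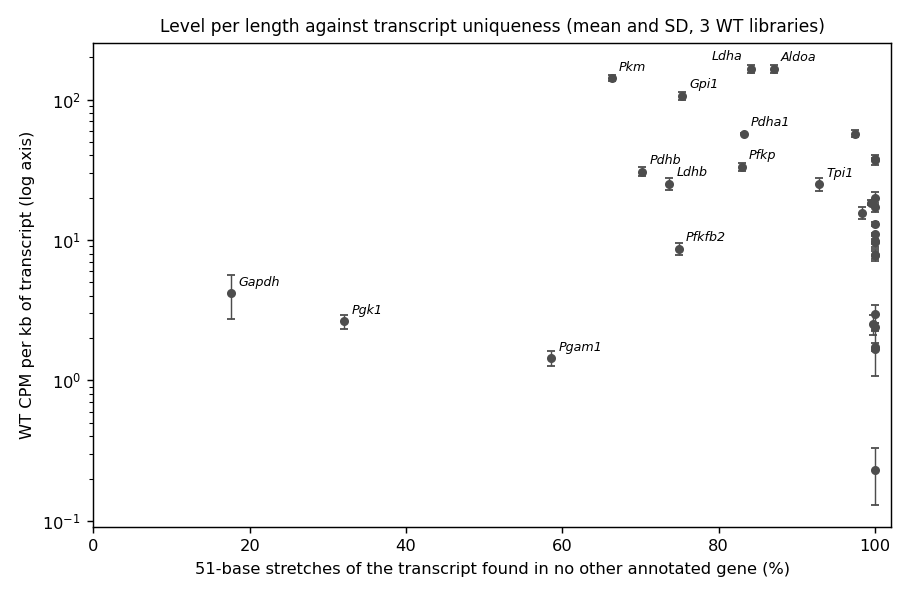
WT level in CPM per kb of transcript (y axis, log scale, mean and SD of 3 libraries) against the percent of 51-base stretches in no other annotated gene (x axis), 1 point per gene with a level above 0. Gapdh and Pgk1, at 17.6 and 32.1%, have levels of 4.18 and 2.64 CPM per kb, far under Aldoa at 166; genes under 95% are named.

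No gene at the pyruvate end of the path was called. *Ldha* and *Ldhb* encode the lactate dehydrogenase subunits that favour lactate and pyruvate. *Ldha* was at 285 to 320 CPM in WT and 256 to 362 CPM in KO (log2 0.12, 95% confidence interval -0.22 to 0.46). *Ldhb* was at 30.8 to 36.5 CPM in WT and 32.2 to 35.2 CPM in KO (log2 0.04, interval -0.22 to 0.29). The pyruvate dehydrogenase genes *Pdha1*, *Pdhb* and *Dlat* had log2 fold changes of 0.06, 0.10 and -0.05, with the widest interval, that of *Dlat*, from -0.37 to 0.26. None of these 5 genes was called, and their groups overlapped.

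None of the kinases that switch off pyruvate dehydrogenase was called with all 6 libraries. *Pdk1*, the highest of them per kb of transcript, was at 190, 181 and 211 CPM in WT and 128, 179 and 194 CPM in KO (log2 -0.22 ± 0.16 SE, edgeR FDR 0.373). *Pdk3* was at 27.4, 28.7 and 26.9 CPM in WT and 37.0, 29.8 and 38.4 CPM in KO, without overlap (log2 0.34 ± 0.12 SE, edgeR FDR 0.0958), and was called higher without KO replicate 2 (log2 0.45, edgeR FDR 0.0234). *Pdk2* was at 16.2 to 18.4 CPM in WT and 16.9 to 21.2 CPM in KO and overlapped. *Pdk4* was too low to be tested.

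Ratios within a library do not depend on how libraries are scaled, and 11 pairs of genes were compared in this way. A further 2 pairs with *Eno1* had no ratio because it was listed at 0. The ratio of *Hk2* to *Hk1* was higher in all KO libraries than in all WT libraries (mean log2 ratio -4.10 ± 0.78 SD against -4.68 ± 0.05 SD, n = 3 each). The KO values were -3.19, -4.55 and -4.55, and the difference of 0.59 was 0.13 without KO replicate 1. The ratio of *Pdk1* to *Pdk3* was lower in all KO libraries (2.24 ± 0.41 SD against 2.81 ± 0.16 SD), a difference of -0.57, which was -0.34 without KO replicate 1. Both had an exact two-sided permutation p of 0.1, the smallest that 3 against 3 libraries allow, and an adjusted p of 0.55 over the 11 pairs. The other 9 pairs overlapped. For *Ldha* to *Ldhb* the difference was 0.06 and for *Ldha* to *Pdha1* it was 0.05.

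**Figure D4:**
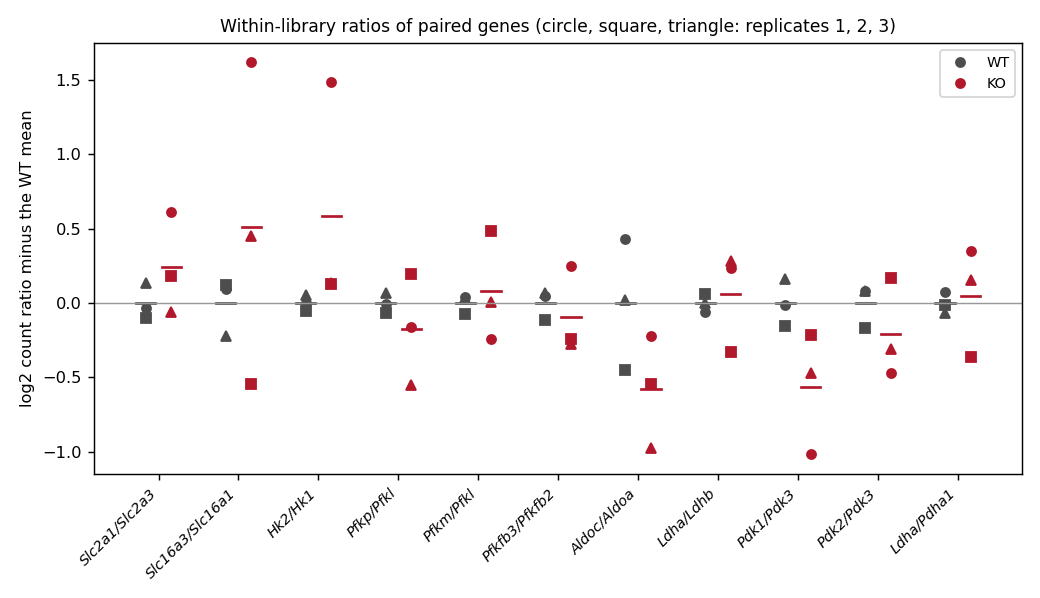
Log2 count ratio of each gene pair in each library, minus the WT mean of that pair (y axis), with group means as bars. Hk2/Hk1 and Pdk1/Pdk3 are the pairs whose WT and KO libraries do not overlap, with mean differences of 0.59 and -0.57.

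Promoters were searched for a pair of motifs known from the control of glycolytic genes, and are shown for the 3 called genes that held a match and for *Ldha*, which held the most. ACGTG is a form of the core that hypoxia-inducible factors bind, and the form GCGTG was not searched. CACGTG is the E-box that MYC and related factors bind. Both strands were searched from 250 bases before to 50 after each RefSeq start (GRCm38.p6), and a CACGTG also counts as ACGTG on each strand. ACGTG was in a promoter of 19 of 33 genes (57.6%), against 29.6% of 8946 tested genes and 21.8% of all 27025 genes with a promoter in the table. Counted by window, since some genes have several starts, it was in 23 of 49 windows (46.9%), against 25.5% of 11407 windows of tested genes. CACGTG was in 6 genes (18.2%), against 11.8%. *Slc2a3* is not in the table. Of the called genes, *Slc2a1*, *Slc16a1* and *Pkm* held ACGTG, while *Tpi1* and *Eno3* held none in this window. *Ldha*, which was not called, held the most matches, 5. The windows with matches are chr4:119108495-119108794 (*Slc2a1*), chr3:104638414-104638713 (*Slc16a1*), chr9:59656977-59657276 (*Pkm*, the second of its windows) and chr7:46845554-46845853 (*Ldha*), all on the plus strand, with the matches in capitals.
Slc2a1: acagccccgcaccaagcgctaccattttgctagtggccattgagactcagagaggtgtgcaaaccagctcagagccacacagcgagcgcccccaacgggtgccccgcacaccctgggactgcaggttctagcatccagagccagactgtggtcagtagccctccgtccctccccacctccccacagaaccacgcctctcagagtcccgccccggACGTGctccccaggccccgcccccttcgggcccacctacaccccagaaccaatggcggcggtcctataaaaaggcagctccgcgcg
Slc16a1: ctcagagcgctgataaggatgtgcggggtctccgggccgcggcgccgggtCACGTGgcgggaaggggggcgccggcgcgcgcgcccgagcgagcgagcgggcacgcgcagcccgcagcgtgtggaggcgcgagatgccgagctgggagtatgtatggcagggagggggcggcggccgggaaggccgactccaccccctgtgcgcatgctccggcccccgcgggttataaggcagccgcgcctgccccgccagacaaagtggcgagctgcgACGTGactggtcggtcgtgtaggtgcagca
Pkm: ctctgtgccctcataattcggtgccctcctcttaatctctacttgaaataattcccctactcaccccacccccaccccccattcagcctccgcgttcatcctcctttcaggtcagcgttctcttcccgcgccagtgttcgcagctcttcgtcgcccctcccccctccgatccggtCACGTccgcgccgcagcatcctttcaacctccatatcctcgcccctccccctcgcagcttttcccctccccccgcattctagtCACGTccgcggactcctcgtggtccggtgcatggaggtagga
Ldha: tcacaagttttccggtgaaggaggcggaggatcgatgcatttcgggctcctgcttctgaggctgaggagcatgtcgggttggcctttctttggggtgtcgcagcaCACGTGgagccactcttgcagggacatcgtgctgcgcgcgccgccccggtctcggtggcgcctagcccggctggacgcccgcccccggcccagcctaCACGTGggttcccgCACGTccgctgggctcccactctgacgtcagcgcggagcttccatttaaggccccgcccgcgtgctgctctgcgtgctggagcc
No binding was measured, so a match is letters only. *Hif1a*, which encodes the oxygen-regulated subunit, was at 347, 442 and 400 CPM in WT and 459, 325 and 333 CPM in KO (log2 -0.09 ± 0.16 SE, edgeR FDR 0.724). *Myc* was at 148, 140 and 176 CPM in WT and 186, 184 and 191 CPM in KO, without overlap, and was not called (log2 0.27 ± 0.10 SE, edgeR FDR 0.107).

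Genes around the path were read from lists of neighbouring functions. Beside the lists stand the shares of all genes called, 11.6% higher and 7.27% lower, or 9.69% and 7.59% without KO replicate 1, and with so few genes in a list its counts are values only. Among 10 tested genes of other isoforms, 4 passed the test, all higher, of which *Pklr* passed the filter on low counts only through KO. *Adpgk*, an ADP-dependent glucokinase, was at 81.6, 85.1 and 81.0 CPM in WT and 104.7, 149 and 130 CPM in KO (log2 0.63, edgeR FDR 0.0180). *Ldhd*, a D-lactate dehydrogenase, rose 3.97-fold, from 3.93 to 4.37 CPM in WT to 9.77 to 23.7 CPM in KO (edgeR FDR 0.00741). *Pgm2*, a phosphoglucomutase, rose 1.36-fold (edgeR FDR 0.0328). *Pklr*, the pyruvate kinase of liver and red cells, was at 0, 0.04 and 0 CPM in WT and 1.78, 1.44 and 1.51 CPM in KO, and is given as values only. Without KO replicate 1, 2 genes of this list were called.

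Among 11 tested genes of pyruvate entry into mitochondria, 1 rose and 1 fell. *Pcx*, pyruvate carboxylase, was at 4.31, 3.77 and 2.66 CPM in WT and 7.66, 7.95 and 11.6 CPM in KO, a 2.53-fold rise (edgeR FDR 0.0160). *Pdp2*, a phosphatase that switches pyruvate dehydrogenase back on, was at 24.2, 18.7 and 21.6 CPM in WT and 11.7, 11.4 and 11.9 CPM in KO (log2 -0.89, edgeR FDR 0.00685). The highest KO library lay below the lowest WT library. Neither the mitochondrial pyruvate carriers *Mpc1* and *Mpc2* nor *Dld* and *Pdhx*, further parts of the complex, were called.

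Of 17 tested TCA cycle genes, 4 were called higher and none lower, among them *Sdhb* and *Sdhd*, subunits of succinate dehydrogenase, and *Mdh2*, mitochondrial malate dehydrogenase. The log2 fold changes of these genes were 0.59, 0.44 and 0.33 (edgeR FDR 0.0117, 0.0214 and 0.0482), and 2 of the list were called without KO replicate 1. Of 8 pentose phosphate genes, *H6pd* rose (log2 0.36, edgeR FDR 0.0425) and *Rpia* fell (log2 -0.57, edgeR FDR 0.0408), and without KO replicate 1 the list had 0 genes higher and 1 lower. Neither of the 2 tested gluconeogenesis genes, *Pck2* and *G6pc3*, was called.

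Targets of hypoxia-inducible factors outside glycolysis gave 1 call in 15 tested genes, *Ndrg1* (log2 0.72, edgeR FDR 0.0134). Among 17 tested regulators of glycolysis, *Tigar*, a phosphatase that removes fructose 2,6-bisphosphate, was the only gene called. It was at 22.7, 24.6 and 25.8 CPM in WT and 18.7, 13.6 and 16.2 CPM in KO (log2 -0.59 ± 0.15 SE, edgeR FDR 0.0328). Without KO replicate 1 this list had 1 gene called higher and 1 lower. *Txnip*, which lowers glucose uptake, was at 663, 646 and 622 CPM in WT and 1017, 2476 and 956 CPM in KO, without overlap, and was not called (edgeR FDR 0.0546). Of the 14 proliferation markers, none was called higher and *Mcm4* was called lower, against 1 higher and 2 lower without KO replicate 1. The median log2 fold changes of the lists ran from -0.01 for the regulators to 0.49 for the other isoforms, against 0.02 for all genes. Without KO replicate 1 the median of the other isoforms was 0.17 and that of the proliferation markers -0.06 in place of 0.36.

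**Figure D5:**
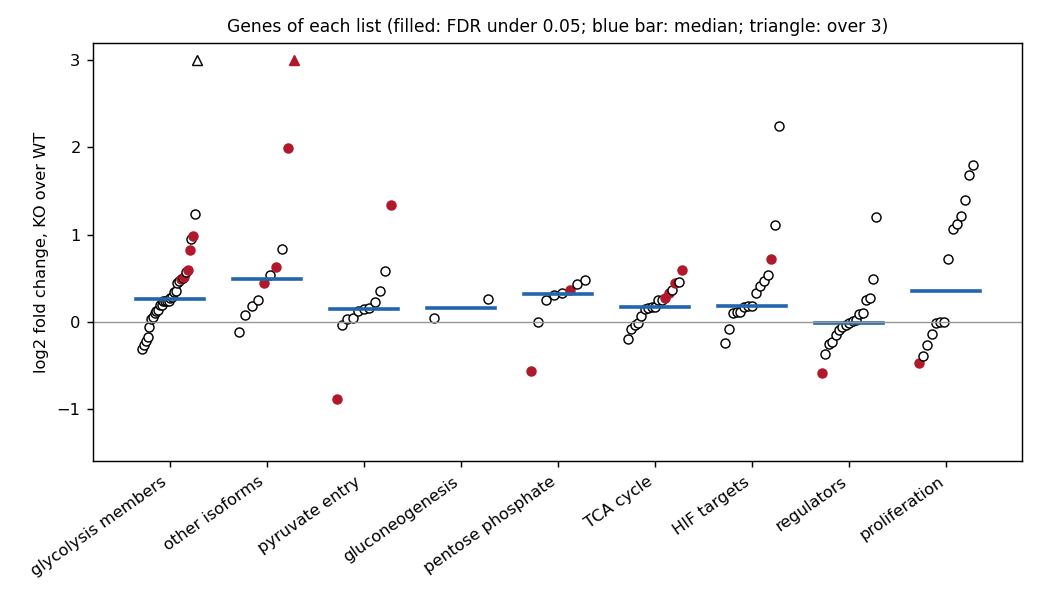
Log2 fold change (KO over WT, y axis) of each tested gene of the glycolysis set and of 8 neighbouring lists, filled where the edgeR FDR was under 0.05, with the list median as a blue bar. The glycolysis median is 0.26 and the regulators' -0.01; the values over 3, drawn as triangles, are Hk3 and Pklr.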

How the data were processed

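RNA from sorted splenic Treg cells (3 WT and 3 KO mice) was made into TruSeq libraries and sequenced as single-end 51-base reads. The authors aligned the reads with HISAT to mm10 and counted them per gene, without strand, with featureCounts, and deposited raw counts per gene. Handling of reads with several matches is not given in the sources used here, and gene names come from the deposited table. CASAVA, HISAT and edgeR are named, without versions, in the submitters' processing notes.

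Groups were taken from the sample titles. Genes with CPM over 1 in at least 3 libraries (11658 genes) were kept, library sizes were recomputed and TMM factors applied. WT and KO were compared with edgeR 4.0.16 (R 4.3.3), by the quasi-likelihood F test with Benjamini-Hochberg adjustment over all genes tested and a threshold of 0.05. CPM values are TMM-scaled, and errors are SE of the fit or SD over 3 libraries. Library totals of 13883069 to 24042994 counts limit the precision of genes at a few CPM, and a count of 0 allows up to 3 counts, 0.123 to 0.227 CPM. Count ratios within a library had 0.5 added to each count and were compared by exact permutation. Scripts were tested on simulated data. Transcript uniqueness and 3′ untranslated regions came from GENCODE vM21, and promoters and microRNAs from RefSeq.

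The members and the gene lists were chosen with earlier results of these data known. Every member is named. Members called or with an absolute log2 fold change of at least 1 are given by library. Up to 4 called genes with the smallest p are named per list. A called gene of these lists is not reported here by name. *Hif1a*, *Myc*, *Txnip*, *Hk2*, *Slc2a3*, *Pfkfb3*, *Pdk1*, *Pdk3* and the uncalled genes of other lists were given by name or library after their values were seen. The alternatives were size factors, library size alone, DESeq2 1.42.0, filters, thresholds, robust estimation, a replicate block and leaving out each library, and, added after seeing the data, a limit to genes with 90% unique stretches. Replicates of each group differed beyond sampling noise (chi-square per degree of freedom 20.3 to 66.9).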

Additional observations from a re-analysis of the deposited data

How the results depend on the processing

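The count of 5 genes called was 3 with library size alone, 8 with DESeq2 and 1 at an FDR under 0.01, all of them higher in KO, while calls over all genes went from 2197 to 2265, 2863 and 686. It was 4 with no CPM filter, which lost *Slc16a1*, and 6 with robust estimation. DESeq2 added *Slc2a3*, *Pfkm* and *Slc16a3*, library size alone lost *Pkm* and *Slc16a1*, and *Eno3* remained at the stricter threshold. Leaving out 1 library gave 1 to 9 genes called higher: 1 without WT replicate 1, 1 without WT replicate 2, 2 without WT replicate 3, 6 without KO replicate 1, 9 without KO replicate 2 and 3 without KO replicate 3. Higher calls over all genes were 666, 483, 555, 1107, 1403 and 874 in the same fits, in place of 1350. The genes gained without KO replicate 2 were *Hk2*, *Pfkl*, *Aldoa*, *Pdk3* and *Slc16a3*. It gave 0 to 1 called lower, *Pfkfb3* without KO replicate 1. *Slc2a1* was called in 4 of these 6 fits, *Tpi1* and *Pkm* only without KO replicate 1 or 2, and *Slc16a1* only without KO replicate 3. The median log2 fold change of 0.26 ran from 0.18 with library size alone to 0.37 without KO replicate 2. With library size alone the median over all genes was -0.06. Over genes of the set with 90% or more unique stretches (chosen after seeing the data) the median was 0.40. The cause of these shifts was not tested.

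With library size alone the log2 fold changes of *Ldhb* and *Pdha1* were -0.044 and -0.0201. Over the fits without 1 library, log2 fold changes changed sign for *Pfkfb4* (-0.30 to 0.48), *Gapdh* (-0.0947 to 0.38), *Pgam1* (-0.092 to 0.58), *Ldhb* (-0.0114 to 0.091) and *Dlat* (-0.14 to 0.0786). The log2 ratio differences changed sign for *Slc16a3/Slc16a1* (-0.0448 to 1.04), *Pfkp/Pfkl* (-0.36 to 0.016), *Pfkm/Pfkl* (-0.12 to 0.25), *Pfkfb3/Pfkfb2* (-0.26 to 0.0016), *Ldha/Ldhb* (-0.0462 to 0.26) and *Ldha/Pdha1* (-0.10 to 0.25). None of the single genes named here (*Ldhb*, *Pdha1*, *Pfkfb4*, *Gapdh*, *Pgam1*, *Dlat*) was called with all 6 libraries, and the cause was not tested.

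The replicate numbers share no stated origin, and deviations of same-numbered libraries correlated at 0.08, -0.01 and -0.20 across genes, so the libraries were not taken as paired. With the replicate number as a block, 4 genes of the set were called, without *Slc16a1* (edgeR FDR 0.0917), and 1606 genes in all in place of 2197.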
